A study of Mus musculus with 18 samples.

Results

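Lif encodes leukemia inhibitory factor, a secreted cytokine of the IL-6 family. It was measured by a single probe set (1450160_at, Entrez gene 16878), 1 of 10335 in the deposited table, and that probe set was found by its gene annotation. Lif is 1 of 9636 genes named in this way. The gene lies on the plus strand of chromosome 11, from base 4257568 to base 4272514 of mouse assembly GRCm38.p6. Lif was chosen because its signal differed between the genotypes on these same arrays. Its levels by genotype are therefore given as a description without a test, while the comparisons between treatments within a genotype, which did not enter that choice, were tested.

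Lin-Kit+ cells, the immature fraction of bone marrow, were sorted into GFP+ cells (JAK2V617F+) and GFP- cells (JAK2V617F-) after culture with a TNFR1 blocking antibody (TNFR1 BA), with a TNFR2 blocking antibody (TNFR2 BA) or without antibody. This gave 6 groups of 3 arrays each: TNFR1 BA, TNFR2 BA and untreated JAK2V617F+ cells, and TNFR1 BA, TNFR2 BA and untreated JAK2V617F- cells. JAK2V617F is the activated form of the kinase JAK2 that commonly drives myeloproliferative neoplasms (MPN). All cells came from Balb/c mice that had MPN after transplantation of donor marrow transduced with JAK2V617F, so the JAK2V617F- cells were exposed to the same disease and are not cells of healthy mice, and the sources used here do not say which of them were host cells. Marrow of 3 to 4 mice was used in each of 3 independent experiments, and it was kept for 16 h in medium with IL-3 and SCF, with each antibody at 10 μg/mL. Untreated JAK2V617F+ replicate 3 failed the quality standards of the study. It was left out of all fits unless it is named, which leaves 17 arrays and 2 untreated JAK2V617F+ arrays.

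Most cytokines of the IL-6 family act through receptors that share the chain gp130, encoded by Il6st. LIF binds its own receptor chain, LIFR, which then pairs with gp130, and the kinases JAK1, JAK2 and TYK2 bound to these chains phosphorylate STAT3. Mouse LIF is best known for keeping mouse embryonic stem cells undifferentiated and for making the leukemic cell line M1 differentiate. In bone marrow it is known mainly as a product of stromal cells and activated leukocytes, mast cells among them, and its transcription can be induced by TNF, IL-1 and other inflammatory signals. The treatments ask whether the signal of Lif changes when either TNF receptor is blocked.

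The 250 bases before the RefSeq start of Lif, chr11:4257318-4257567 on the plus strand of GRCm38.p6, are shown because genes of factors that bind some of the motifs searched, namely Fos, Stat3, Stat5a, Gata2 and Mycn, are among the genes described here. The capitals mark the matches to the motifs searched on both strands.
Lif promoter: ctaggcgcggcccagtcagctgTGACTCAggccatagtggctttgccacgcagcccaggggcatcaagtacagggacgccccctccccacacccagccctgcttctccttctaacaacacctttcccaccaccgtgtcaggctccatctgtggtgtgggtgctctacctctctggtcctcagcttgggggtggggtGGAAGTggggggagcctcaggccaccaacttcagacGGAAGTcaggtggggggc
The AP-1 motif TGANTCA, bound by FOS and JUN proteins, was matched 1 time, 228 bases before the start, and 6.75% of 32851 promoter windows of this length hold a match. The ETS motif GGAAGT was matched 2 times, 54 and 18 bases before the start, and 19.7% of the windows hold it. The STAT motif TTCNNNGAA (held by 7.02% of windows), the E-box CACGTG that MYC proteins bind (6.02%) and the letters GATA (53.6%) were not matched. None of these motifs overlaps another here, and a match is only a run of letters.

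The values are log2 signals as deposited. Every array has the same lowest value, 2.22, which 312 to 608 probe sets (3.02% to 5.88%) shared on the 17 arrays used. Values at or near it have no order, and differences measured against them can be understated. Array medians lay between 7.41 and 7.75 on the arrays used and at 6.05 on the excluded array, where 36.5% of probe sets were under 4. Kit, the receptor gene of the sort, had signals of 3.71 to 9.95 (median 7.47) in the 8 JAK2V617F+ arrays used and 4.19 to 9.20 (median 7.83) in the 9 JAK2V617F- arrays, so its transcript level was not uniform in either. Transcripts of mature neutrophils were also bright in both genotypes, with S100a8 at 13.66 to 15.24 in JAK2V617F+ arrays and 14.72 to 15.32 in JAK2V617F- arrays, although the sort was for lineage-negative cells. Jak2 itself had signals of 5.73 to 10.77 (median 8.78) in JAK2V617F+ arrays and 6.003 to 9.94 (median 8.33) in JAK2V617F- arrays, which overlap. Jak2 was picked as a check of the labels after its values had been seen. Whether its probe set detects the transduced JAK2V617F was not tested, so the overlap cannot check the labels or the level of JAK2V617F. These are bulk samples, in which fewer cells of a type and less RNA per cell cannot be told apart.

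Lif was bright in every JAK2V617F+ array used and close to the lowest value in 8 of the 9 JAK2V617F- arrays. In TNFR1 BA-treated JAK2V617F+ cells the log2 signals were 9.30, 9.72 and 11.08 in replicates 1, 2 and 3. In TNFR2 BA-treated JAK2V617F+ cells they were 9.86, 10.28 and 9.003, and in untreated JAK2V617F+ cells 9.58 and 10.24. These 8 arrays lay within 2.08 log2 units of each other, whichever treatment they had. In TNFR1 BA-treated JAK2V617F- cells the signals were 2.24, 2.34 and 2.83, in TNFR2 BA-treated JAK2V617F- cells 2.22, 5.64 and 2.25, and in untreated JAK2V617F- cells 2.40, 2.34 and 2.24. All but 1 of these 9 arrays were within 1 log2 unit of the lowest value, and TNFR2 BA JAK2V617F- replicate 2 stood above them at 5.64. The genotypes did not overlap, since the lowest JAK2V617F+ array used was 3.37 log2 units above that highest JAK2V617F- array.

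**Figure D1:**
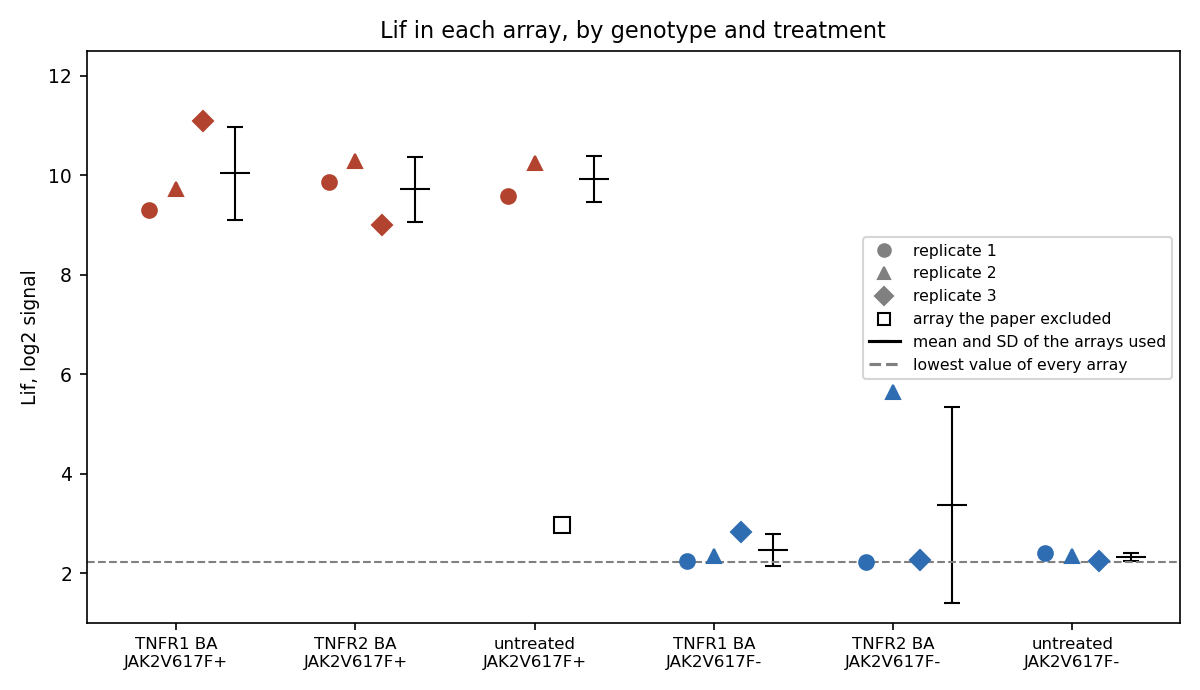
Log2 signal of Lif (vertical axis) in each of the 18 arrays, by group, with symbols for the replicate number, bars for the mean and SD without the excluded array, and a dashed line at the lowest value of every array (2.22). The JAK2V617F+ arrays used lie between 9.003 and 11.08, the excluded array (open square) is at 2.97, and the JAK2V617F- arrays lie between 2.22 and 5.64.

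Group means were 10.03 ± 0.93 (SD, n = 3) in TNFR1 BA, 9.71 ± 0.65 (n = 3) in TNFR2 BA and 9.91 ± 0.46 (n = 2) in untreated JAK2V617F+ cells. The JAK2V617F- means were 2.47 ± 0.32 in TNFR1 BA, 3.37 ± 1.96 in TNFR2 BA and 2.32 ± 0.08 in untreated cells (SD, n = 3 each). In the order of levels, the 3 JAK2V617F+ groups (TNFR1 BA, untreated, TNFR2 BA) came first and did not differ from each other beyond their spread. The 3 JAK2V617F- groups (TNFR2 BA, TNFR1 BA, untreated) followed, likewise within their spread. Over the 3 treatments the mean was 9.88 ± 0.65 (SD, n = 8) in JAK2V617F+ arrays and 2.72 ± 1.11 (n = 9) in JAK2V617F- arrays, or 2.35 ± 0.20 (n = 8) in JAK2V617F- arrays without TNFR2 BA replicate 2. Here n counts arrays, which came from 3 experiments.

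The mean of the 3 within-treatment differences, JAK2V617F+ minus JAK2V617F-, was 7.17 log2 units (standard error 0.68, from limma). The difference was 7.57 (standard error 1.13) with TNFR1 BA, 6.34 (standard error 1.13) with TNFR2 BA and 7.59 (standard error 1.27) in untreated cells. Within replicate numbers, Lif was higher in the JAK2V617F+ member of 8 of 8 pairs used, by 4.64 to 8.25. These 8 pairs came from 3 experiments, so they are not independent of each other. The smallest of these pairs was TNFR2 BA replicate 2, the pair whose JAK2V617F- array had a signal of 5.64, and the others differed by 6.75 or more.

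As background, 31 probe sets (0.3% of all) were higher and 6 (0.0581%) lower in JAK2V617F+ cells over the 3 treatments at an adjusted p under 0.05 from limma. At an unadjusted p under 0.05 there were 538 higher (5.21%) and 525 lower (5.08%). When arrays of 1 experiment were paired through a replicate block, limma called 49 higher and 18 lower. Every JAK2V617F+ array used was above every JAK2V617F- array for 23 probe sets (0.223%). Lif is 1 of these 23, with the 4th largest difference of all probe sets and the 4th widest gap between genotypes, and since the gene was chosen on this contrast nothing is read from that.

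The excluded array did not share the high Lif signal. Untreated JAK2V617F+ replicate 3 had a log2 signal of 2.97 for Lif, 6.03 below the lowest JAK2V617F+ array used and 0.74 above its JAK2V617F- partner of replicate 3. With it, the JAK2V617F+ mean was 9.11 ± 2.38 (SD, n = 9) and the difference over the 3 treatments 6.40. The same array had high signals for most genes whose pattern was like that of Lif. Of the 31 probe sets higher in JAK2V617F+ cells, its value was at or below the highest JAK2V617F- array for 10, Lif among them. The part of the quality of this array in its Lif value was not tested.

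Lif did not change detectably with either antibody. In JAK2V617F+ cells, TNFR1 BA minus untreated was 0.12 log2 units (standard error 1.27, 95% confidence interval -2.54 to 2.78, limma, adjusted p = 1). TNFR2 BA minus untreated was -0.20 (standard error 1.27, interval -2.86 to 2.46, adjusted p = 1). Within replicates 1 and 2, the differences were -0.28 and -0.52 with TNFR1 BA and 0.28 and 0.04 with TNFR2 BA, so each antibody left the signal within 0.52 of its untreated partner. The intervals are wide, and a change of about 2 log2 units in either direction lies inside them. If the excluded array is used as the third untreated array, the differences become 2.43 with TNFR1 BA and 2.11 with TNFR2 BA, and neither passed the threshold (limma, adjusted p = 0.655 and 0.865).

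In JAK2V617F- cells, TNFR1 BA minus untreated was 0.14 (standard error 1.13, interval -2.24 to 2.52, limma, adjusted p = 1), with differences of -0.16, -0.00 and 0.59 within replicates 1, 2 and 3. TNFR2 BA minus untreated was 1.05 (standard error 1.13, interval -1.33 to 3.43, adjusted p = 1). The within-replicate differences were -0.18, 3.30 and 0.02, so the mean rests on replicate 2, and without the TNFR2 BA array of that replicate it was -0.09. A decrease from the untreated JAK2V617F- level could hardly be seen, because those 3 arrays were already at 2.24 to 2.40, beside a lowest value of 2.22.

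**Figure D2:**
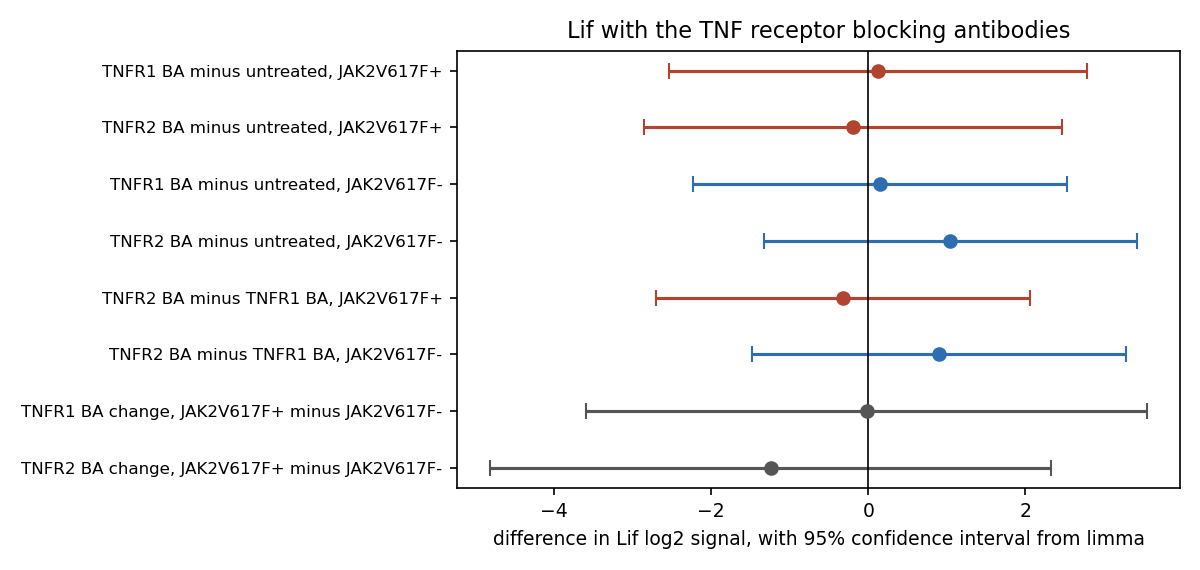
Differences in the log2 signal of Lif (horizontal axis) between treatments within each genotype, and the differences of these changes between genotypes, as points with 95% confidence intervals from limma. All 8 intervals include 0, and the widest runs from -4.82 to 2.33.

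The 2 antibodies were also set against each other. TNFR2 BA minus TNFR1 BA was -0.32 (standard error 1.13, interval -2.70 to 2.06) in JAK2V617F+ cells and 0.90 (standard error 1.13, interval -1.48 to 3.28) in JAK2V617F- cells (limma, adjusted p = 1 for both). The change with TNFR1 BA in JAK2V617F+ cells minus that in JAK2V617F- cells was -0.02 (standard error 1.70, interval -3.59 to 3.55, adjusted p = 0.999), and for TNFR2 BA it was -1.25 (standard error 1.70, interval -4.82 to 2.33, adjusted p = 0.997). A difference between the genotypes in the response of Lif to either antibody was not detected, and the interaction intervals are the widest of all.

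Few probe sets of the whole table changed with an antibody by this test. In JAK2V617F+ cells 1 probe set (0.00968%) passed with TNFR1 BA, that of the clock gene Cry2, and 3 (0.029%) passed with TNFR2 BA, those of Cry2, Xiap and Itm2a (named after their values were seen). In JAK2V617F- cells 0 probe sets (0%) passed with TNFR1 BA and 0 (0%) with TNFR2 BA in limma. At an unadjusted p under 0.05, limma gave 701 (6.78%) for TNFR1 BA and 544 (5.26%) for TNFR2 BA in JAK2V617F+ cells, and 385 (3.73%) for TNFR1 BA and 255 (2.47%) for TNFR2 BA in JAK2V617F- cells. Both antibody comparisons within a genotype share their untreated arrays.

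Among the other IL-6 family cytokines, 4 were measured, and 0 of these differed between the genotypes past the adjusted threshold in limma. At an unadjusted p under 0.05, 1 (Il6) was higher and 0 were lower, beside 5.21% and 5.08% of all probe sets. Il6, the founding member of the family, had signals of 6.07 to 8.19 (median 6.89) in JAK2V617F+ arrays and 2.85 to 8.34 (median 2.89) in JAK2V617F- arrays. Its difference over the 3 treatments was 3.02 (standard error 0.84, limma, adjusted p = 0.176). Of the JAK2V617F- arrays only TNFR2 BA replicate 3, at 8.34, reached the JAK2V617F+ range, and without that array the adjusted p for Il6 was 0.0241, the only one of 20 such omissions that brought it past the threshold. The array where Il6 was high in JAK2V617F- cells was thus not the one where Lif was high (TNFR2 BA replicate 2, with Il6 at 2.85).

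Osm encodes oncostatin M, the cytokine closest to LIF, and in mouse its gene lies beside Lif. Its signals were 5.71 to 9.85 (median 6.39) in JAK2V617F+ arrays and 4.34 to 6.85 (median 5.77) in JAK2V617F- arrays, which differed by 1.46 (standard error 0.80, adjusted p = 0.534). The highest JAK2V617F+ values of Osm were 9.39 in TNFR1 BA replicate 1 and 9.85 in TNFR2 BA replicate 3, the arrays with the lowest Lif of their groups. Untreated JAK2V617F+ cells went the other way. Replicate 2, with Osm at 7.30 and Lif at 10.24, was above replicate 1 (5.93 and 9.58) for both. Ebi3, a subunit of IL-27 and IL-35, had medians of 8.37 in JAK2V617F+ and 8.17 in JAK2V617F- arrays (difference 0.62, adjusted p = 0.848). Clcf1, a cytokine that signals through the CNTF receptor, was close to the lowest value in most arrays of both genotypes, with medians of 2.22 in JAK2V617F+ and 2.87 in JAK2V617F- arrays (difference -0.80, adjusted p = 0.787). Il11, Cntf, Ctf1, Ctf2, Il27 and Il31 were not analysed here.

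**Figure D3:**
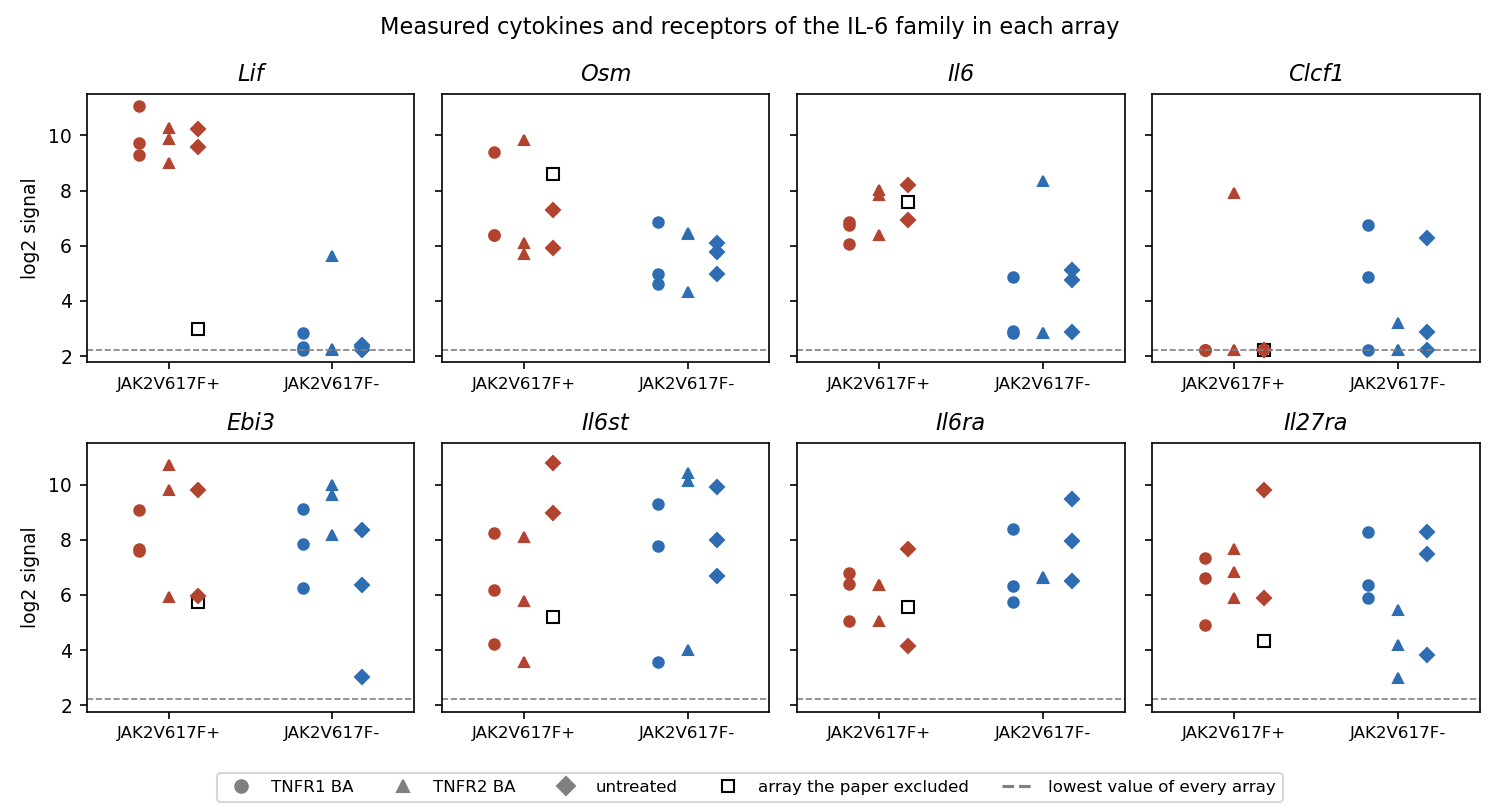
Log2 signal (vertical axis) of the 8 measured cytokines and receptors of the IL-6 family in each array, JAK2V617F+ left and JAK2V617F- right, with symbols for the treatment and a dashed line at the lowest value of every array. Lif is the one panel where the arrays used do not overlap between genotypes, while for Il6 one JAK2V617F- array, at 8.34, reaches the JAK2V617F+ range.

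The receptor chain that binds LIF, Lifr, was not analysed here, and neither were Osmr, Il11ra1, Cntfr and Il31ra. The shared chain gp130 (Il6st) was measured in both genotypes, at 3.59 to 10.79 (median 7.14) in JAK2V617F+ arrays and 3.59 to 10.44 (median 7.98) in JAK2V617F- arrays. Its difference was -0.45 (standard error 1.09, limma, adjusted p = 0.917), and the arrays of each genotype spread over more than 6 log2 units. Il6ra, the IL-6 binding chain, differed by -1.17 (adjusted p = 0.595), and Il27ra, the IL-27 binding chain, by 1.11 (adjusted p = 0.684). None of the 3 receptor genes had an unadjusted p under 0.05 from limma, between genotypes or with an antibody.

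Downstream of the receptors, 16 genes of JAKs, STATs and adaptor proteins were measured, and 0 passed the adjusted threshold between genotypes in limma. At an unadjusted p under 0.05, 0 were higher and 1 was lower, beside 5.21% and 5.08% of all probe sets. The lower one was Stat3, the main signal carrier of LIF. Its probe set was at the lowest value of 2.22 in all 8 JAK2V617F+ arrays used and in 3 of 9 JAK2V617F- arrays, where the highest signal was 6.24 (difference -1.78, standard error 0.61, adjusted p = 0.311). On the excluded JAK2V617F+ array the Stat3 probe set had 6.51. Stat5a, which carries signals of IL-3 and of JAK2, differed by 1.27 (adjusted p = 0.551), and Sos1, an adaptor that leads to RAS, by 1.29 (adjusted p = 0.606). The median difference of the 16 genes was 0.24.

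Of 12 measured feedback inhibitors of cytokine signalling, limma called 0 at either threshold, with a median difference of 0.08. The 3 with the smallest p were Pias3, an inhibitor of STAT3 (1.35, adjusted p = 0.496), Cish, a target and inhibitor of STAT5 signalling (0.56, adjusted p = 0.546), and Pias1, of the same family as Pias3 (-0.98, adjusted p = 0.719). Of 20 measured STAT3 target genes, 0 passed the adjusted threshold. At an unadjusted p under 0.05 from limma, 1 was higher and 2 were lower, beside 5.21% and 5.08% of all probe sets. Ccnd1, which encodes cyclin D1, was at a median of 4.53 in JAK2V617F+ arrays and 9.09 in JAK2V617F- arrays (difference -3.42, standard error 0.98, adjusted p = 0.199). The immediate early gene Fos had medians of 3.26 in JAK2V617F+ and 2.22 in JAK2V617F- arrays (difference 2.62, adjusted p = 0.396), and the transcription factor gene Klf4 had medians of 2.22 in JAK2V617F+ and 2.52 in JAK2V617F- arrays (difference -1.22, adjusted p = 0.481). The median difference of these targets was 0.07, with 10 of 20 above 0.

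Of 14 measured genes for inducers of Lif, their receptors and the blocked TNF receptors, limma called 1 (Csf2rb2) higher in JAK2V617F+ cells and 0 lower. Of all probe sets, 0.3% were called higher and 0.0581% lower. Csf2rb2 encodes the beta chain of the mouse IL-3 receptor, and its signals were 12.16 to 12.80 (median 12.63) in JAK2V617F+ arrays and 10.17 to 11.96 (median 11.26) in JAK2V617F- arrays, without overlap. The difference was 1.55 (standard error 0.27, limma, adjusted p = 0.0109). Csf2rb, the near-identical gene of the beta chain common to IL-3, IL-5 and GM-CSF, differed by 0.71 (adjusted p = 0.547), and probes of such a pair can bind both transcripts, so the value of either is uncertain. The Csf2rb2 call was lost without the variance trend (adjusted p = 0.0834), without replicate 1, 2 or 3, and without untreated JAK2V617F+ replicate 2, and the adjusted p ran from 0.00103 to 0.26 when arrays or replicates were left out.

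The inflammatory cytokine gene Il1b had medians of 8.17 in JAK2V617F+ and 5.79 in JAK2V617F- arrays (difference 3.07, standard error 1.09, adjusted p = 0.328). Il1rap, which encodes a chain of the IL-1 receptor, differed by -1.85 (adjusted p = 0.4). The genes of the blocked receptors were measured in both genotypes, with differences of 0.29 for Tnfrsf1a, which encodes TNFR1 (adjusted p = 0.87), and -0.08 for Tnfrsf1b, which encodes TNFR2 (adjusted p = 0.964). Both were named after their values were seen. Tnf itself was not analysed here.

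Taking the 6 lists without Lif, 69 of 96 genes were measured. In JAK2V617F+ cells limma called 1 of the 69 higher and 0 lower, beside 0.3% and 0.0581% of the whole table. At an unadjusted p under 0.05, 4 of the 69 were higher (Il6, Fos, Il1b and Csf2rb2) and 4 lower (Stat3, Klf4, Ccnd1 and Il1rap). The same limit was passed upward by 5.21% of the 10335 probe sets and downward by 5.08%. Positive differences were seen for 37 of 69 genes, with a median of 0.14, and for 5168 of 10335 probe sets in all. With the antibodies, 0 of the 69 genes passed the adjusted threshold in any of the 4 comparisons with untreated cells. At an unadjusted p under 0.05 from limma, 6 genes passed with TNFR1 BA (8.70%) and 5 with TNFR2 BA (7.25%) in JAK2V617F+ cells, and 1 passed with TNFR1 BA (1.45%) and 2 with TNFR2 BA (2.90%) in JAK2V617F- cells. These shares stand beside 6.78%, 5.26%, 3.73% and 2.47% of all probe sets in the same 4 comparisons.

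**Figure D4:**
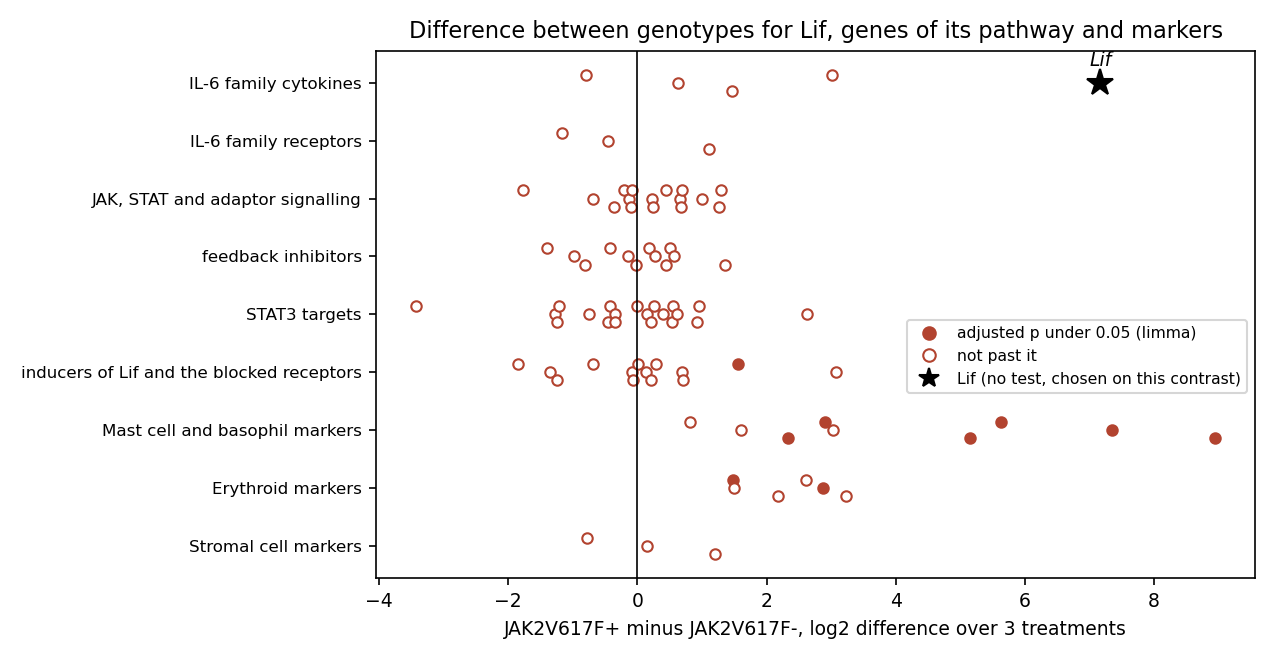
Difference between genotypes over 3 treatments, JAK2V617F+ minus JAK2V617F- in log2 units (horizontal axis), for each measured gene of the 6 lists around LIF and of 3 marker lists, with filled points for an adjusted p under 0.05 from limma. Lif (star, not tested) is at 7.17, and the other genes of the 6 lists lie between -3.42 and 3.07, with Csf2rb2 the 1 filled point.

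The genes whose pattern was most like that of Lif were found by the root mean square difference from Lif over the 17 arrays, after each probe set was centred on its own mean. Among 9650 probe sets with a gene symbol the median of this measure was 3.88 log2 units, and a flat probe set would be at 3.68. The 10 closest were Tpsb2 (1.04), Mycn (1.06), Tpsab1 (1.45), Tph1 (1.63), Podxl (1.78), Cma1 (1.83), Maob (1.86), Pklr (1.90), Rnf128 (1.94) and Ecm1 (1.95), and the next was at 2.10. All 10 are among the 31 probe sets higher in JAK2V617F+ cells, and 8 of 10 had no overlap between genotypes, which the likeness to Lif brings with it. Quantile normalization kept 10 of 10 of these genes and use of all 18 arrays 8 of 10.

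Tpsb2, Tpsab1 and Cma1 encode proteases of mast cell granules. Tpsb2 had signals of 8.33 to 11.34 (median 10.39) in JAK2V617F+ arrays and 2.55 to 3.43 (median 2.60) in JAK2V617F- arrays. Tpsab1 had 10.68 to 13.39 (median 12.33) in JAK2V617F+ arrays and 2.25 to 6.72 (median 2.33) in JAK2V617F- arrays. Its highest JAK2V617F- value was in the same array as that of Lif, TNFR2 BA replicate 2. It also had 6.45 in untreated JAK2V617F- replicate 2, where Lif was at 2.34. Of the 9 measured mast cell and basophil genes, 1 had its highest JAK2V617F- value in the array with the highest Lif. Of the 10 genes most like Lif, 3 did. Cma1, a chymase, had 12.94 to 13.998 (median 13.76) in JAK2V617F+ arrays and 2.98 to 9.86 (median 8.28) in JAK2V617F- arrays, so it was not near the lowest value in most JAK2V617F- arrays, unlike Lif.

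Mycn, which encodes a transcription factor of the MYC family, had signals of 8.92 to 11.93 (median 10.48) in JAK2V617F+ arrays and 2.22 to 2.28 (median 2.22) in JAK2V617F- arrays, so every JAK2V617F- array was at or close to the lowest value. Gata2, a transcription factor gene of stem cells and mast cells, had 9.97 to 11.89 (median 11.04) in JAK2V617F+ arrays and 9.13 to 10.61 (median 9.99) in JAK2V617F- arrays (difference 0.98, limma, adjusted p = 0.346). Tph1, the enzyme that starts serotonin synthesis in mast cells, had medians of 12.38 in JAK2V617F+ and 6.83 in JAK2V617F- arrays. The remaining genes were Podxl (a surface sialomucin), Maob (monoamine oxidase B), Pklr (pyruvate kinase of liver and red cells), Rnf128 (a ubiquitin ligase) and Ecm1 (an extracellular matrix protein), with JAK2V617F+ medians of 8.52 to 9.97 and JAK2V617F- medians of 2.86 to 6.11.

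**Figure D5:**
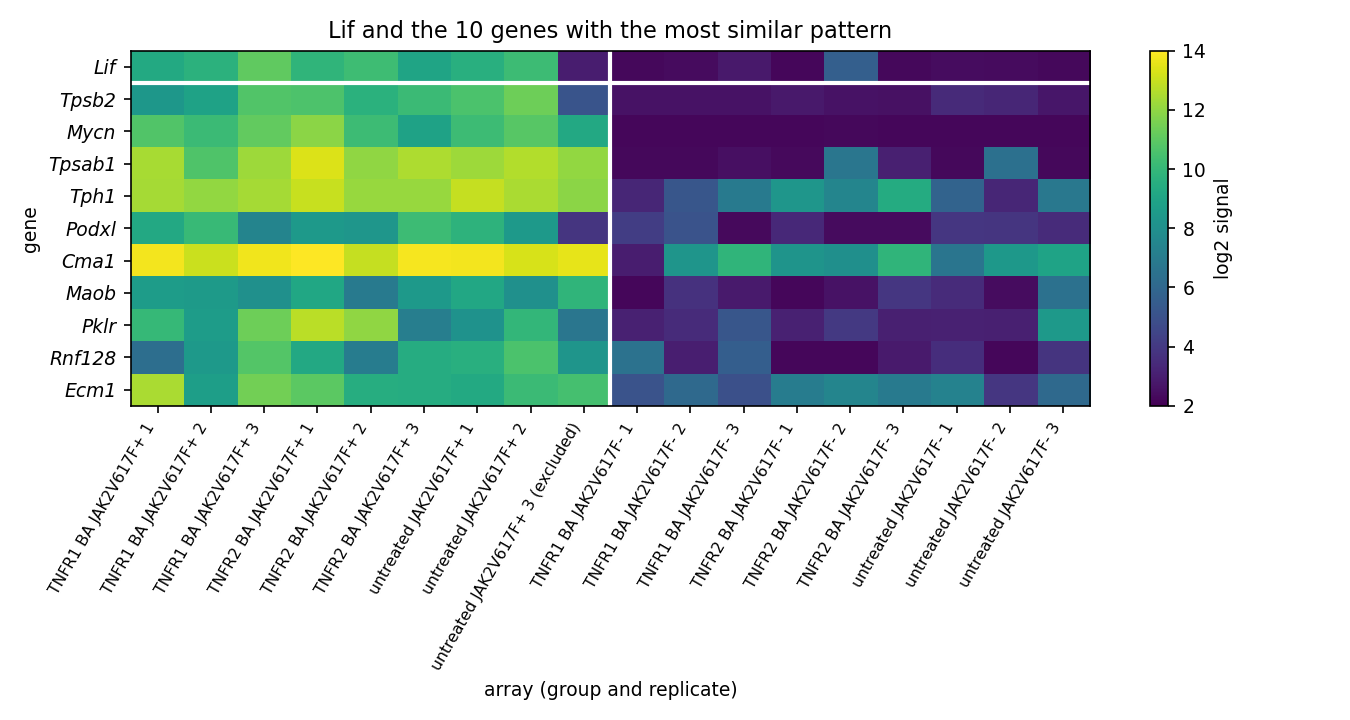
Log2 signal (colour) of Lif and the 10 genes with the most similar pattern in each of the 18 arrays, with JAK2V617F+ arrays left and JAK2V617F- arrays right of the vertical line. On the excluded array (the last column left of the line) Lif is at 2.97, while Cma1 is at 13.55, Tpsab1 at 12.04 and Mycn at 9.26.

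Only 6 probe sets of the table had a median under 3 in JAK2V617F- arrays and over 9 in JAK2V617F+ arrays, namely those of Ccl6, Tpsb2, Mycn, Tpsab1, Lif and Cd200r3 (limits set after the values were seen). On the excluded array the signal was 11.77 for Ccl6, 5.14 for Tpsb2, 9.26 for Mycn, 12.04 for Tpsab1 and 8.41 for Cd200r3, against 2.97 for Lif. Of the 10 genes most like Lif, 6 were at or above the lowest JAK2V617F+ array used on that array, and 2 (Podxl and Pklr) were at or below the highest JAK2V617F- array. Lif thus had the lowest signal of the 6 probe sets on the excluded array. It was not alone in being as low there as in JAK2V617F- cells. Of the 31 probe sets higher in JAK2V617F+ cells, 10 were at or below their highest JAK2V617F- array.

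Of 9 measured marker genes of mast cells and basophils, 6 were called higher in JAK2V617F+ cells, beside 0.3% of all probe sets. Differences were positive for 9 of 9, beside 5168 of 10335 probe sets, with a median of 3.02. This list was chosen with earlier results of these data known, so its counts are a description. Mcpt8 (adjusted p = 0.4), Ms4a2 (adjusted p = 0.253) and Hdc (adjusted p = 0.0627) did not pass the threshold in limma. The mean of the list was 10.58 to 12.20 in JAK2V617F+ arrays and 6.04 to 8.29 in JAK2V617F- arrays, without overlap. No defining gene was at the lowest value in all JAK2V617F- arrays, and Cpa3, the mast cell carboxypeptidase, had 10.58 to 12.88 there, against 13.67 to 14.55 in JAK2V617F+ arrays. In the JAK2V617F- array with the highest Lif, TNFR2 BA replicate 2, the mean of the list was 7.74, inside the range of the other JAK2V617F- arrays. On the excluded array it was 10.87, and 7 of 9 genes were at or above the lowest JAK2V617F+ array used. The part of these markers in the Lif result was not tested.

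Other marker lists were also measured. These lists too were chosen with earlier results of these data known, so their counts are a description. Of 6 erythroid genes, 2 (Car2 and Ermap) were called higher in JAK2V617F+ cells, beside 0.3% of all probe sets. Differences were positive for 6 of 6, beside 5168 of 10335 probe sets. The erythroid list means were 7.84 to 10.78 in JAK2V617F+ arrays and 5.45 to 8.32 in JAK2V617F- arrays. Of 5 megakaryocyte genes limma called 0, and the median difference was 1.54. At an unadjusted p under 0.05, 2 of them were higher, and of all probe sets 5.21% were higher and 5.08% lower. Of 3 stromal cell genes (Col1a2, Lepr and Pdgfrb), limma called 0 at either threshold, and their list means were 2.22 to 5.11 in JAK2V617F+ arrays and 2.22 to 4.38 in JAK2V617F- arrays. Col1a2, the defining collagen gene of this list, had medians of 2.59 in JAK2V617F+ and 2.22 in JAK2V617F- arrays. Lists for monocytes, neutrophils, B cells, T and NK cells, endothelial cells and stem and progenitor cells had 0 calls each in limma. At an unadjusted p under 0.05, 1 of 2 T and NK cell genes was lower and 1 of 2 endothelial genes higher. Of 9 stem and progenitor genes, 1 was higher and 1 lower. Of 7 monocyte, 6 neutrophil and 4 B cell genes, 0 passed this limit. The same limit was passed upward by 5.21% and downward by 5.08% of all probe sets. The part of the erythroid genes in the Lif result was likewise not tested.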

How the data were processed

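Gene expression was measured on Affymetrix mouse expression arrays in 18 samples of 6 groups of 3. Complementary DNA was made and labelled with NuGEN kits, and images and signals were processed with Affymetrix Command Console and Expression Console. The deposited table holds log2 signals, which were used without further scaling. The normalization, like the choice of probe sets, was not given in the sources used here, and the table holds no detection calls, so a value at the shared lowest value is only a bound. The number of arrays limits the precision.

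Probe sets were named through the annotation of the platform, which gave 1 symbol to 9651 of them, more than 1 to 27 and no symbol to 657. By Entrez ID, 9625 probe sets matched a mouse gene table of GRCm38.p6, and 0 symbols changed. For a listed gene with more than 1 probe set, the brightest on average was taken. The promoter and gene positions are from RefSeq on GRCm38.p6.

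Group means of the 17 arrays used were fitted in limma 3.58.1 (R 4.3.3) with moderated variances that follow a trend on the mean signal, and p-values were adjusted by Benjamini-Hochberg over all 10335 probe sets, with a threshold of 0.05. The fit was tested on simulated data. These held only large genotype differences and independent noise without a shared lowest value, so they do not bear on the antibody comparisons. The genotype difference of Lif got no test. The replicate number was read as the experiment, since the methods describe 3 independent experiments in which each culture was sorted into both genotypes. It so pairs the arrays. The main fit left this pairing out, and the replicate block was run as an alternative. As a check, the mean correlation of deviations from the group means was 0.008 among arrays of replicate 1, 0.071 for replicate 2, 0.144 for replicate 3 and -0.033 across numbers, and 13 of 17 arrays correlated best with an array of their own number. Nothing says how the animals of the experiments were related, and p-values measure the spread between these arrays.

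Lif, the gene lists and the alternatives were chosen with earlier results of these data known. Named genes were Lif, all measured cytokines and receptors of the IL-6 family, of the other lists the genes past the threshold or, where fewer than 3 passed, the 3 of smallest p, the 10 probe sets most like Lif, Mycn and Gata2, and Kit and defining markers. Alternatives were all 18 arrays, the replicate block, quantile normalization, subtracted array medians, a filter on dim probe sets (at least 6 in at least 2 arrays), variances without a trend, array weights, only the compared groups, the methods' t-test paired and unpaired, unadjusted p-values, all probe sets of a gene and leaving out arrays.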

Additional observations from a re-analysis of the deposited data

Results flagged for a closer look

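With groups of 3 arrays no single array can be checked against its own group, so the values of Lif were checked within each genotype over the 3 treatments, by the gap between the most extreme array and its nearest neighbour as a share of the whole range. Chance alone singles out about 1 in 20 such groups if the values are normally distributed. That rate does not hold for the JAK2V617F- arrays, because 8 of the 9 lay within 1 log2 unit of the lowest value. Among the 9 JAK2V617F+ arrays that include the excluded one, untreated JAK2V617F+ replicate 3 was lowest with a log2 signal of 2.97. Its gap to the next array was 6.03, 0.744 of the range, above the critical value of 0.493. Among the 9 JAK2V617F- arrays, TNFR2 BA JAK2V617F- replicate 2 was highest with 5.64. Its gap was 2.81, 0.821 of the range, above the same critical value. No JAK2V617F+ array stood apart in this way once the excluded array was left out.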

How the results depend on the processing

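The genotype difference of Lif kept its direction under every alternative run, between 6.40 (all 18 arrays) and 7.28 over the 3 treatments, and between 6.97 and 7.54 when arrays or replicates were left out. With all 18 arrays it was 5.28 in untreated cells. Such omissions gave 7.04 to 7.93 with TNFR1 BA, 5.69 to 7.48 with TNFR2 BA and 7.26 to 7.95 in untreated cells. None of the antibody comparisons of Lif passed the threshold under any alternative or omission, though sizes and directions moved. With all 18 arrays, TNFR1 BA minus untreated in JAK2V617F+ cells was 2.43 and TNFR2 BA minus untreated 2.11, and the difference of the changes between genotypes was 2.29 for TNFR1 BA and 1.07 for TNFR2 BA. For TNFR1 BA that difference was 0.028 with the replicate block and 0.072 with array weights. By the methods' t-test, paired over replicates 1 and 2, TNFR1 BA minus untreated in JAK2V617F+ cells was -0.40 and TNFR2 BA minus untreated 0.16. When arrays or replicates were left out, TNFR1 BA minus untreated ran from -0.40 to 0.61 in JAK2V617F+ and from -0.081 to 0.30 in JAK2V617F- cells, and TNFR2 BA minus untreated from -0.60 to 0.16 in JAK2V617F+ and from -0.087 to 1.66 in JAK2V617F- cells. TNFR2 BA minus TNFR1 BA ran from -0.76 to 0.56 in JAK2V617F+ and from -0.30 to 1.64 in JAK2V617F- cells, and the differences of the changes from -0.55 to 0.39 for TNFR1 BA and from -2.26 to -0.07 for TNFR2 BA. Where 1 array was left in a group, it was assumed to vary like the other groups.

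With the replicate block, 49 probe sets were higher and 18 lower in JAK2V617F+ cells, and at an unadjusted p 538 and 525. Leaving out arrays or replicates gave 6 to 49 higher and 0 to 70 lower. Both maxima came without untreated JAK2V617F+ replicate 1. Without replicate 1, 7 were higher and 0 lower, and without replicate 2, 6 were higher and 0 lower, where fewer arrays were fitted. The lower count was 2 without TNFR2 BA JAK2V617F- replicate 1 and 3 without any one of TNFR2 BA JAK2V617F+ replicates 1 and 3, TNFR2 BA JAK2V617F- replicate 2 and untreated JAK2V617F- replicate 1. The pathway lists had 0 genes called higher without the variance trend, 4 higher and 4 lower at an unadjusted p, and 0 to 2 higher and 0 to 1 lower when arrays or replicates were left out. The cause of these moves was not tested.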

Other observations

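Protein-coding genes within 200 kb of Lif on chromosome 11 were looked up after the values had been seen. Osm ends 16542 bases before the start of Lif. Besides Osm, the measured neighbours were Sf3a1, Rnf215, Sec14l2 and Mtfp1, with differences between JAK2V617F+ and JAK2V617F- cells over the 3 treatments of -0.14, 0.45, 0.95 and -0.06 log2 units, against 1.46 for Osm and 7.17 for Lif. None of these 5 neighbours passed the adjusted threshold in limma (lowest adjusted p = 0.534, for Osm). Sec14l3, Ccdc157, Tbc1d10a, Castor1 and Hormad2 were not analysed here. On the excluded array Osm had a log2 signal of 8.60 and Sec14l2 of 6.95, against 2.97 for Lif.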
